A study of Mus musculus with 6 samples.

Results

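The genes examined are 10 genes of insulin action, read in inguinal white adipose tissue: the receptor Insr, its substrates Irs1 and Irs2, the phosphoinositide 3-kinase subunit Pik3r1, the kinases Akt1 and Akt2, the Rab regulator Tbc1d4, the glucose transporters Slc2a4 and Slc2a1, and the transcription factor Foxo1. They were chosen by symbol, with every probe set that the array's annotation gives to 1 of these symbols alone. This yielded 27 probe sets of 34945 with 1 gene, and 10 genes of 18193. For each gene, 1 probe set with the highest signal, averaged over the 6 arrays, stands for it, and the other 17 are described beside it. In RefSeq's GRCm38.p6 annotation the genes span chr8:3150922-3279649 (Insr), chr1:82233105-82291439 (Irs1), chr8:10984681-11008929 (Irs2), chr12:112653821-112674884 (Akt1), chr7:27591552-27640826 (Akt2), chr13:101680761-101768217 (Pik3r1), chr4:119108745-119137330 (Slc2a1), chr11:69942286-69948216 (Slc2a4), chr14:101442360-101609281 (Tbc1d4) and chr3:52268337-52350109 (Foxo1).

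The tissue came from male mice, 3 of the Naa10-KO genotype and 3 wild type (WT), with 1 array per mouse. From the age of 6 weeks all mice ate a high-fat diet (60% of its energy as fat), which went on for 15 weeks. The fat was collected after 4 h in the cold, at 4 °C, in both genotypes, so neither a lean nor a warm group was compared. Naa10 encodes the enzyme that acetylates the N termini of many new proteins. The labels do not say how the allele was made, nor whether it is lost in fat alone or in the whole animal. Naa10 itself was not analysed here, so the genotype labels were not checked against the targeted transcript.

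In fat, insulin binds its receptor, a tyrosine kinase that phosphorylates the Irs proteins. These recruit phosphoinositide 3-kinase through its regulatory subunit p85α, the product of Pik3r1, and the lipid it makes brings Akt to the membrane. Akt2, the main isoform for glucose uptake in adipocytes, phosphorylates AS160 (Tbc1d4) and thereby releases vesicles that carry GLUT4 (Slc2a4) to the cell surface, while GLUT1 (Slc2a1) serves basal uptake. Akt also keeps Foxo1 out of the nucleus. The pathway is run by phosphorylation and traffic of proteins, and the arrays measured RNA only.

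None of the 10 genes passed the test for a difference between Naa10-KO and WT fat. The test was limma's, 2-sided, with Benjamini-Hochberg adjustment over all 18193 genes and a threshold of 0.05, and adjusted p-values of the 10 genes lay between 0.621 and 0.992. Over all genes the same test called 0.0879% higher and 0.0275% lower in Naa10-KO, so a count of 0 in 10 is near that background. At an unadjusted p under 0.05, 0 of the 10 genes passed, against 9.20% of all genes (4.85% higher and 4.35% lower). The arrays of the genotypes overlapped in all 10 genes, whereas they did not overlap in 18.1% of all genes (10% higher, which is 1821 genes, and 8.14% lower). Log2 differences are Naa10-KO minus WT throughout, and ran from -0.07 for Slc2a4 to 0.37 for Tbc1d4, with 6 means higher and 4 lower (51.4% and 48.6% of all genes). Their median was 0.18, beside 0.01 over all genes. The median size of a difference, sign aside, was 0.18 for the 10 genes and 0.29 for all genes. Limma's 95% intervals lay within 1 log2 unit either way in 9 of the 10, the exception being Irs2, and in 8969 of all 18193 genes. None of the 10 genes had a mean below the median of all probe set values, whereas 6834 of all genes did. Both comparisons of size therefore set the 10 beside a set that includes dimmer genes. A p that misses the threshold does not show that the genotypes were alike, and the intervals give the differences that 3 arrays a group leave possible.

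**Figure D1:**
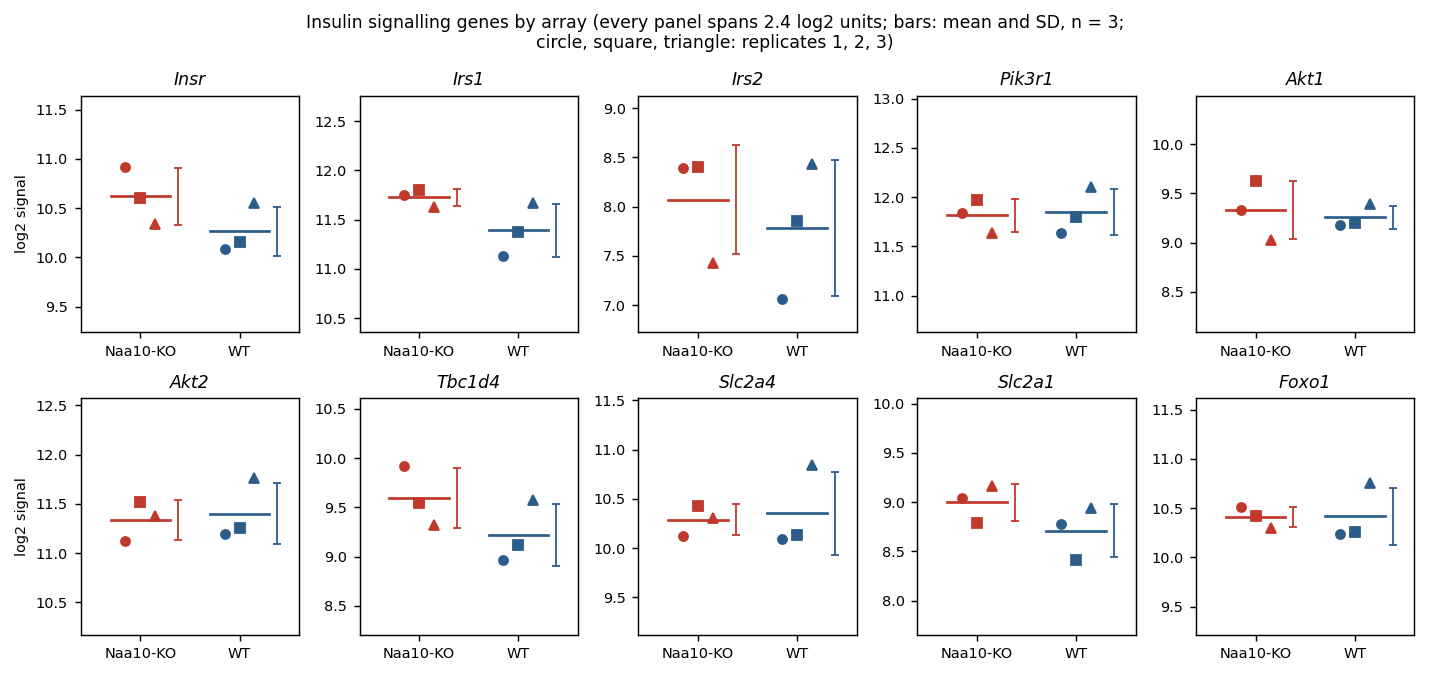
Log2 signal of the 10 genes on each array, with Naa10-KO arrays left and WT arrays right in every panel. Circles, squares and triangles are replicates 1, 2 and 3, the line is the mean and the bar the SD (n = 3). The genotypes overlap in every panel, and WT replicate 3 is the highest array for Irs2, Pik3r1, Akt2, Slc2a4 and Foxo1.

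At the top of the pathway, all 3 genes had higher means in Naa10-KO fat, by 0.29 to 0.35 log2 units, and none passed. Insr, the insulin receptor, had log2 signals of 10.92, 10.60 and 10.34 in Naa10-KO fat, against 10.09, 10.16 and 10.55 in WT fat. The lowest Naa10-KO array lay below the highest WT array, and the difference was 0.35 (SE 0.22, 95% interval -0.21 to 0.92, limma adjusted p = 0.658). As a fold this was 1.28, with an interval of 0.863 to 1.89. The other Insr probe sets were dim, with means of 5.45 and 5.44 over the 6 arrays, and differed by 0.98 (SE 0.43, overlapping) and -0.43 (SE 0.31). Irs1, a main docking protein of the receptor in fat and muscle, had 11.75, 11.80 and 11.63 in Naa10-KO fat, against 11.13, 11.38 and 11.67 in WT fat. Naa10-KO arrays lay close together (SD 0.09) while WT arrays spread more (SD 0.27), and only WT replicate 3 reached the Naa10-KO range. The Irs1 difference of 0.34 (SE 0.19, interval -0.14 to 0.81) had the smallest adjusted p of the 10 genes, 0.621.

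Irs2, the substrate that is strongly regulated at the RNA level in liver, varied most between animals. Its log2 signals were 8.39, 8.40 and 7.43 in Naa10-KO fat, against 7.06, 7.86 and 8.43 in WT fat. All Naa10-KO arrays lay inside the WT range. The means were 8.07 ± 0.56 in Naa10-KO fat and 7.79 ± 0.69 in WT fat (SD, n = 3 each). The difference of 0.29 (SE 0.46) had the widest interval of the 10 genes, -0.86 to 1.44, which as a fold is 0.551 to 2.71. Without WT replicate 1 it was -0.07.

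Foxo1 is known to act on Irs2 in liver through a sequence with the letters TGTTTTG next to an E-box, CACGTG, and the promoter windows of Irs1 and Irs2 are printed to show these letters. Both are the 250 bases before the RefSeq start site in GRCm38.p6, on the minus strand, 5′ to 3′, with TGTTTTG and CACGTG in capitals on either strand.
Irs1, chr1:82291440-82291689: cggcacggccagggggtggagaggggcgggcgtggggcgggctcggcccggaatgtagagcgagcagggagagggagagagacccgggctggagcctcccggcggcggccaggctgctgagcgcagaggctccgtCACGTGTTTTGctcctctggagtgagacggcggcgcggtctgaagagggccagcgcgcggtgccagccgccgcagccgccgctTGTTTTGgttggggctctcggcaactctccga
Irs2, chr8:11008930-11009179: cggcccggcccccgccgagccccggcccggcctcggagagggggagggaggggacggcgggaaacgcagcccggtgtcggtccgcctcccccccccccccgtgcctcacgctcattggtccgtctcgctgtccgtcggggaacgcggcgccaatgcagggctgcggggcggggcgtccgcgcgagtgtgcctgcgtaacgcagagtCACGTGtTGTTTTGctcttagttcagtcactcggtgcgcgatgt
In Irs2 a single base separates CACGTG from TGTTTTG, and in Irs1 the 2 motifs share their TG. The promoter table held 13 windows for 8 of the 10 genes, and only these 2 windows held both motifs. Of all 32851 windows of this length, 5.56% held TGTTTTG, 6.02% CACGTG and 0.295% both. The related forkhead motif TGTTTAC was in 1 of the 13 windows, at Akt1, and in 3.17% of all windows. These were 3 of 6 motifs searched on both strands, and the pair is shown because it was found. The others were TGTTT (8 of the 13 windows and 46.4% of all), GGGCGG (8 of the 13 and 32.7%) and TATAAA (1 of the 13 and 12.4%), and a match is a description of letters, not a binding site.

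Pik3r1, which encodes the regulatory subunits p85α, p55α and p50α from different start sites, gave readings that differed between its 4 probe sets. The probe set used for the gene, 1438682_at, had 11.84, 11.97 and 11.63 in Naa10-KO fat, against 11.64, 11.80 and 12.10 in WT fat. The groups overlapped almost fully there, with a difference of -0.04 (SE 0.19, interval -0.51 to 0.44, limma adjusted p = 0.961). Probe set 1425515_at also overlapped, with a difference of 0.07 (SE 0.24). Probe set 1425514_at had 8.20, 8.07 and 8.03 in Naa10-KO fat, against 8.68, 9.01 and 8.80 in WT fat, and all Naa10-KO arrays lay below all WT arrays. Its difference was -0.73 (SE 0.17, interval -1.16 to -0.30), a ratio of 0.603. Probe set 1451737_at separated the groups in the same way, with 7.07, 6.96 and 6.78 in Naa10-KO fat, against 7.52, 7.89 and 7.54 in WT fat (difference -0.72, SE 0.19).

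These were the only 2 of the 27 probe sets with an unadjusted p under 0.05 in limma. Both were lower in Naa10-KO, a direction in which 4.30% of all 34945 probe sets passed that mark, with 3.89% in the other. Probe set 1425514_at had an unadjusted p = 0.00665 and an adjusted p = 0.427 in limma's fit of all probe sets. Probe set 1451737_at had an unadjusted p = 0.0116 and a limma adjusted p = 0.5. Neither passed, and limma called 0% of all probe sets in either direction. Under other scalings and with each array left out in turn, chosen after the values were seen, the differences stayed between -0.81 and -0.64 for 1425514_at and between -0.78 and -0.60 for 1451737_at. The annotation gives 1425514_at, 1451737_at and 1425515_at the same source mRNA, and which part of the transcript each one reads was not determined here.

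**Figure D2:**
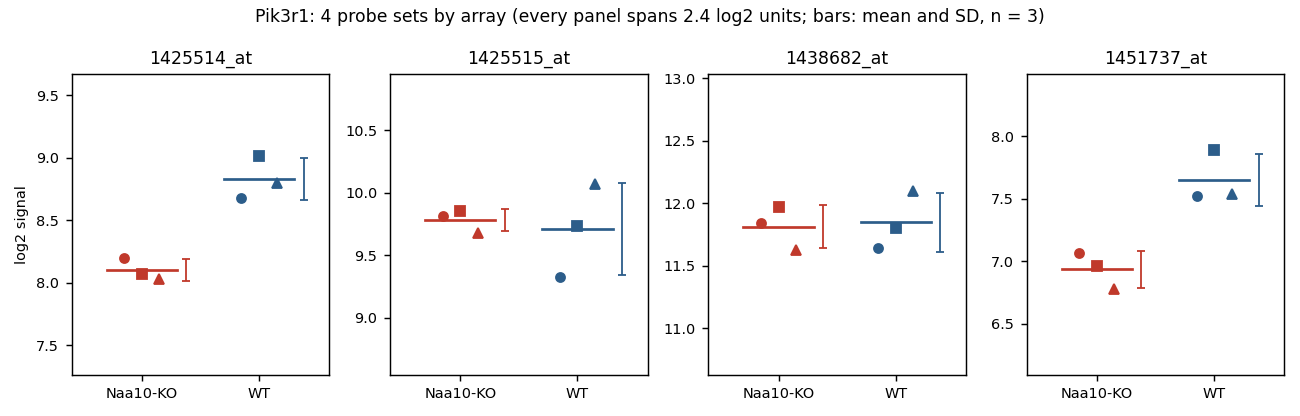
Log2 signal of the 4 Pik3r1 probe sets on each array, Naa10-KO left and WT right, with mean and SD (n = 3). Probe sets 1425514_at and 1451737_at lie lower on all Naa10-KO arrays than on all WT arrays, and the groups overlap in 1425515_at and 1438682_at.

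RefSeq places Pik3r1 transcripts at start sites 75.6 kb apart on chromosome 13, and the 250 bases before each are printed because the probe sets disagreed. Both are from GRCm38.p6, minus strand, 5′ to 3′, and neither holds the E-box or either of the forkhead motifs named for Irs1, Irs2 and Akt1 on either strand, so no letter is in capitals.
Pik3r1 upstream start, chr13:101768218-101768467: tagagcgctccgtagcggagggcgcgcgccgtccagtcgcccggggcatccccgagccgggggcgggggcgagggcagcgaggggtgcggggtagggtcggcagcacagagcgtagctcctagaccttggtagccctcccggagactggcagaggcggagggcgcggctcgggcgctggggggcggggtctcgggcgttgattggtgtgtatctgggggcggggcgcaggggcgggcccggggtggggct
Pik3r1 internal start, chr13:101692631-101692880: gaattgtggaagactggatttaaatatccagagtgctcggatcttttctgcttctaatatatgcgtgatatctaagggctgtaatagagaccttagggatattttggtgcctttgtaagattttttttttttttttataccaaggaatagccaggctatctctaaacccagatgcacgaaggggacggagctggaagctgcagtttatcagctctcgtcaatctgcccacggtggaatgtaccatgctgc
The upstream window is 76.4% G and C with 30 CpG, and the internal window is 42.4% G and C with 6 CpG, beside a median of 52.4% over all windows. The arrays give no value for either start site on its own.

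Neither Akt kinase passed the test. Akt1, the isoform tied mainly to growth, had 9.33, 9.62 and 9.03 in Naa10-KO fat, against 9.18, 9.20 and 9.39 in WT fat. All 3 WT arrays lay inside the Naa10-KO range, and the difference was 0.07 (SE 0.20, interval -0.43 to 0.57, limma adjusted p = 0.919). Akt2 had 11.12, 11.52 and 11.38 in Naa10-KO fat, against 11.19, 11.25 and 11.76 in WT fat. Here too the arrays interleaved, with a difference of -0.06 (SE 0.22, interval -0.62 to 0.50).

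The other probe sets of both kinases pointed in various directions. For Akt2, 1421324_a_at differed by -0.46 (SE 0.39) and 1455703_at by -0.33 (SE 0.24), and only 1455703_at did not overlap between genotypes, which makes 3 of the 27 probe sets with the 2 of Pik3r1 (all lower in Naa10-KO, beside 8.31% lower and 8.55% higher over all probe sets). On 1421324_a_at the Naa10-KO arrays read 9.02, 9.91 and 10.40, against 10.30, 10.03 and 10.39 for WT, and Naa10-KO replicate 1 was the low array. That array was also the lowest on the other 2 Akt2 probe sets. For the control transcript Gapdh, the 3′ probe set minus the 5′ one gave 0.55 on this array and -0.27 to 0.01 on the rest, and for Actb 2.07 on this array and 1.42 to 1.85 on the rest. That measure reads RNA integrity and labelling, and the part of this in the Akt2 values was not tested. For Akt1, the 3 other probe sets ran from -0.40 to 1.69, and the highest of these, 1442759_at, fell under 5.86, the median value of all probe sets, on all 6 arrays.

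Among the genes of glucose entry, Slc2a4 did not differ beyond the spread of the arrays. GLUT4 signals were 10.12, 10.43 and 10.31 in Naa10-KO fat, against 10.09, 10.13 and 10.84 in WT fat. Naa10-KO arrays lay between the WT arrays, and the difference was -0.07 (SE 0.25, interval -0.71 to 0.57, limma adjusted p = 0.942), a fold of 0.954 with an interval of 0.612 to 1.49. The second probe set, 1415959_at, had 6.95, 8.77 and 8.36 in Naa10-KO fat, against 8.28, 8.15 and 9.03 in WT fat (difference -0.46, SE 0.55). The low array was again Naa10-KO replicate 1, and WT replicate 3 was the highest on both Slc2a4 probe sets.

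Skeletal muscle also makes GLUT4, and muscle RNA differed widely between these samples. The mean log2 signal of 24 muscle markers was 10.78, 10.75 and 10.96 on Naa10-KO arrays, against 4.81, 5.35 and 7.88 on WT arrays. The means of WT replicates 1 and 2 lay under 5.86, the median value of all probe sets, where low signal limits the size of a difference. On all WT arrays, 3 of the markers were under that value. All 24 markers had higher means in Naa10-KO, by a median of 4.57. Of the 24, 1 passed the test (Pvalb), beside 0.0879% of all genes called higher. In 22 the genotypes did not overlap, beside 10% of all genes that were higher without overlap. Of the 3 with the highest signal, Acta1, skeletal actin, differed by 1.24 (SE 0.35) and Myl1, a myosin light chain, by 3.08 (SE 0.28). Pvalb, the calcium buffer parvalbumin, averaged 13.67 ± 0.27 in Naa10-KO fat and 9.75 ± 0.50 in WT fat (SD, n = 3 each; limma adjusted p = 0.0409). The Slc2a4 arrays overlapped between genotypes and the muscle list means did not. WT replicate 3 was the highest WT array in both. It was also the highest of all 6 arrays in 5 of the 10 genes, Slc2a4 among them. The part of muscle RNA in the values of Slc2a4, Tbc1d4 and Irs1 was not tested. In whole tissue, fewer cells of a type and less RNA per cell cannot be told apart.

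Tbc1d4 had 9.92, 9.54 and 9.32 in Naa10-KO fat, against 8.97, 9.12 and 9.57 in WT fat. Its difference of 0.37 (SE 0.25, interval -0.25 to 1.0) was the largest of the 10 genes and did not pass (limma adjusted p = 0.671), with WT replicate 3 above 2 of the 3 Naa10-KO arrays. The second Tbc1d4 probe set, 1455903_at, differed by -0.90 (SE 0.99) and was under the median value on 5 of 6 arrays. With the mean of both probe sets taken for the gene, the Tbc1d4 difference turned to -0.26.

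All 3 probe sets of Slc2a1 had higher means in Naa10-KO fat. GLUT1 signals were 9.04, 8.79 and 9.16 in Naa10-KO fat, against 8.78, 8.41 and 8.94 in WT fat. Only WT replicate 3 lay above the lowest Naa10-KO array, and the difference was 0.29 (SE 0.20, interval -0.22 to 0.80, limma adjusted p = 0.684). The other Slc2a1 probe sets differed by 0.23 (SE 0.17) and 0.28 (SE 0.24), and neither passed. GLUT1 is carried by human red blood cells and by the endothelium of the brain. The mean of 10 endothelial markers was 8.25 to 8.40 on Naa10-KO arrays and 8.27 to 8.40 on WT arrays. That of 4 red blood cell markers was 3.81 to 4.47 on Naa10-KO arrays and 4.78 to 5.55 on WT arrays. Both ranges lay under 5.86, the median value of all probe sets, where low signal limits the reading. The part of endothelium or red blood cells in Slc2a1 was not tested.

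Foxo1, the transcription factor that insulin restrains, had the smallest difference of the 10 genes. Its signals were 10.51, 10.42 and 10.30 in Naa10-KO fat, against 10.24, 10.26 and 10.75 in WT fat. The difference was -0.01 (SE 0.20, interval -0.50 to 0.48), with all Naa10-KO arrays inside the WT range. Probe sets 1416981_at and 1416982_at gave 0.12 (SE 0.21) and -0.06 (SE 0.17). The remaining one, 1456529_at, was under the median value on all 6 arrays.

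**Figure D3:**
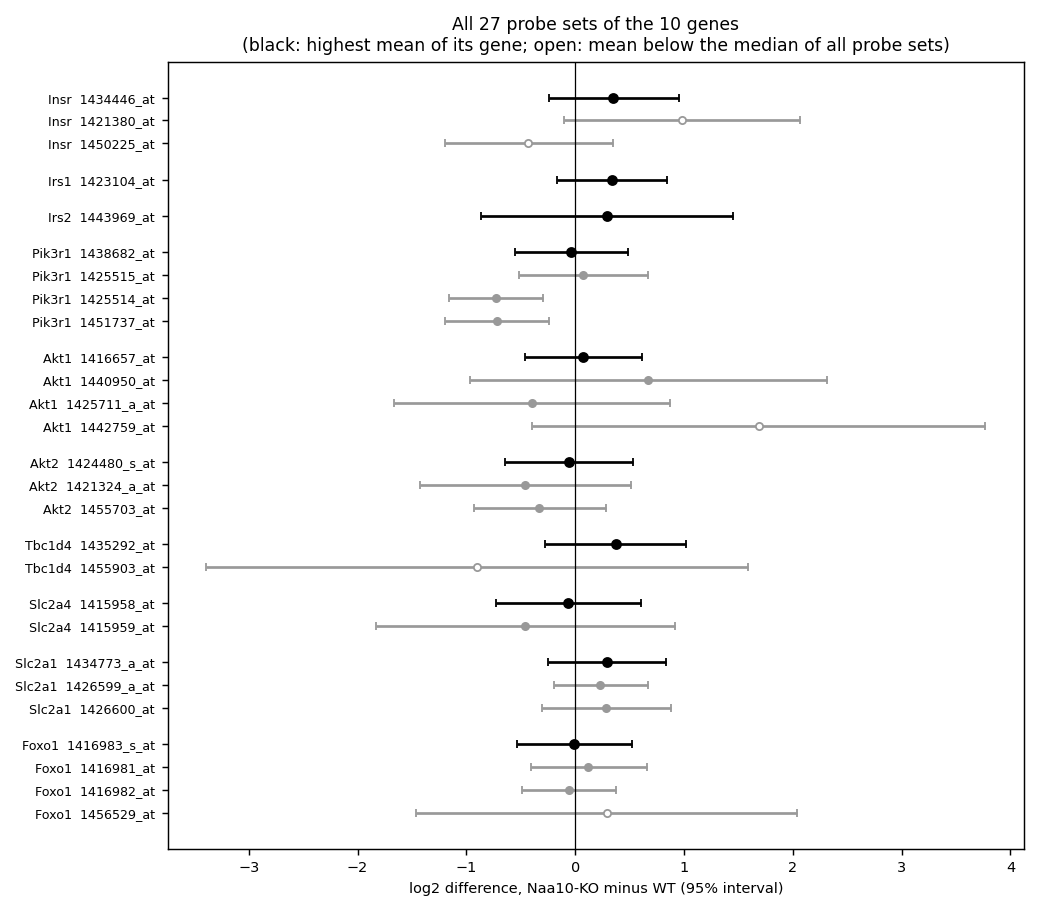
Log2 difference, Naa10-KO minus WT, of all 27 probe sets (14 means higher and 13 lower, beside 49.5% and 50.5% of all probe sets) with limma's 95% interval, grouped by gene; black marks the probe set used for the gene and open circles a mean below the median of all probe sets. Only Pik3r1 1425514_at (-1.16 to -0.30) and 1451737_at have intervals that leave out 0.

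Seen across arrays, WT replicate 3 carried the highest signal in 5 of the 10 genes and WT replicate 1 the lowest in 6, against 17.3% and 17.9% of all genes. The SD was larger in WT than in Naa10-KO in 8 of the 10 genes, as for Slc2a4 (SD 0.15 in Naa10-KO and 0.42 in WT) and Foxo1 (SD 0.10 in Naa10-KO and 0.29 in WT). The share of all genes with a larger SD in WT was not counted, so this is not read as a trait of the 10 genes. Without WT replicate 3, the differences of Akt2, Pik3r1, Slc2a4 and Foxo1 changed sign, to 0.12, 0.09, 0.18 and 0.16. Limma's adjusted p-values of the 10 genes in that fit were 0.509 to 0.88. No gene of the 10 separated the genotypes on all arrays, so none was matched with genes of similar profile.

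The other genes of insulin action were described from a list of 81, of which 71 were measured. None passed (limma adjusted p between 0.503 and 0.996). At an unadjusted p under 0.05, 1 was higher and 1 was lower in Naa10-KO, which is 2 of 71 against 9.20% of all genes. Genotypes did not overlap in 11 of the 71, 5 higher and 6 lower, against 18.1% of all genes. The median difference was 0.02.

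Between receptor and Akt, 18 adaptors and kinases had a median difference of -0.02, with 8 means higher and 10 lower. Rictor, the defining subunit of the complex mTORC2 that phosphorylates Akt, had 10.09, 9.61 and 9.53 in Naa10-KO fat, against 9.32, 9.32 and 9.37 in WT fat. The Naa10-KO arrays all lay above the WT arrays (difference 0.41, SE 0.19, adjusted p = 0.588), while its other 4 probe sets ran from -0.46 to 0.88. Each of these 4 was under the median value of all probe sets on at least 4 of the 6 arrays. The highest, 1441753_at (0.88, SE 0.36), also read higher on all Naa10-KO arrays. Pik3r3, another regulatory subunit of phosphoinositide 3-kinase, did not overlap in the other direction (difference -0.29, SE 0.14). Sh2b2, an adaptor of the receptor, differed by 0.46 (SE 0.30) with overlapping arrays.

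Of 10 negative regulators, 7 means were higher and 3 lower, with a median of 0.07. Grb14, an adaptor that blocks the kinase of the activated insulin receptor, had 11.50, 11.93 and 11.69 in Naa10-KO fat, against 12.34, 12.49 and 12.05 in WT fat. All Naa10-KO arrays were below all WT arrays, and the difference of -0.58 (SE 0.20, interval -1.08 to -0.09, unadjusted p = 0.0284) did not pass after adjustment (limma adjusted p = 0.503). Its second probe set lay far lower in signal and differed by -2.26 (SE 1.03). Trib3, a pseudokinase that binds Akt, differed by -0.35 (SE 0.21), and Phlpp1, a phosphatase of Akt, by 0.15 (SE 0.15).

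Among 15 Akt substrates and outputs the median was 0.11, with 8 means higher and 7 lower. Akt1s1, the mTORC1 inhibitor PRAS40, was lower on all Naa10-KO arrays (difference -0.35, SE 0.16, limma adjusted p = 0.571). Its other probe sets overlapped and differed by -0.57 (SE 0.43) and 0.19 (SE 0.96). Rheb, the GTPase that activates mTORC1, was higher on all Naa10-KO arrays (0.28, SE 0.16). Eif4ebp1, the translation repressor 4E-BP1, differed by 0.33 (SE 0.18) with overlapping arrays. Its probe set 1417562_at also overlapped (0.26, SE 0.18). The remaining one, 1417563_at, was higher on all Naa10-KO arrays (0.72, SE 0.22, limma adjusted p = 0.558).

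The 14 genes of GLUT4 vesicle traffic had a median of -0.04, with 7 means each way. Rab14, a GTPase of the endosomal route, had 13.66, 13.68 and 13.71 in Naa10-KO fat, against 13.26, 13.23 and 13.39 in WT fat. The groups were apart (difference 0.39, SE 0.13, unadjusted p = 0.0260, limma adjusted p = 0.503). Of its 6 other probe sets, 1415686_at (0.29, SE 0.18) was also higher on all Naa10-KO arrays. Probe set 1419244_a_at (-0.23, SE 0.15) was lower on all Naa10-KO arrays. The rest overlapped and differed by 0.06 to 0.28. Vamp2, the vesicle SNARE, was higher on all Naa10-KO arrays (0.48, SE 0.20, adjusted p = 0.549). Aspscr1, the tether TUG that holds GLUT4 vesicles inside the cell, was lower on all of them (-0.44, SE 0.22). The second probe sets of both genes overlapped between genotypes, with 1.09 (SE 1.19) for Vamp2 and 0.03 (SE 0.41) for Aspscr1.

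Other sugar transporters numbered 11, and the means of 5 were under the median value. Slc2a3, the high-affinity transporter GLUT3 of neurons, had 10.59, 9.97 and 9.71 in Naa10-KO fat, against 8.34, 7.80 and 10.03 in WT fat. WT replicate 3 reached the Naa10-KO range, and the difference of 1.37 (SE 0.63, interval -0.23 to 2.96) did not pass (limma adjusted p = 0.584). A second Slc2a3 probe set, 1455898_x_at, differed by 1.08 (SE 0.42) and did not overlap, whereas the remaining 2 were low and differed by -0.66 and -0.43. Slc2a13, a transporter of myo-inositol, was lower on all Naa10-KO arrays (-0.41, SE 0.21), and Slc2a9, a urate transporter, differed by -1.71 (SE 1.21). For Slc2a9, 3 arrays were under the median value, with Naa10-KO replicate 1 the lowest at 1.51. Its second probe set differed the other way, by 0.88 (SE 1.18). Of the hexokinases, which trap glucose in the cell, Hk2 differed by 0.10 (SE 0.16), Hk1 by -0.36 (SE 0.31) and Hk3 by -0.07 (SE 0.16).

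**Figure D4:**
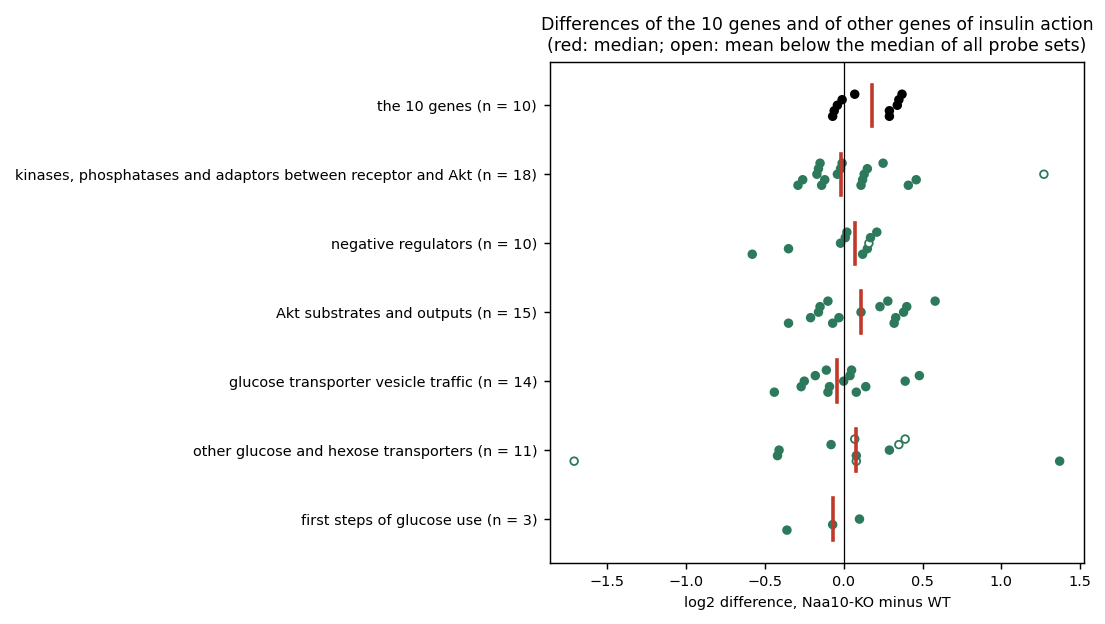
Log2 difference, Naa10-KO minus WT, of the 10 genes and of 71 other genes of insulin action by role; each point is 1 gene, red lines are medians and open circles have a mean below the median of all probe sets. Medians lie between -0.07 and 0.18, and the points beyond 1 log2 unit are Irs4, Slc2a3 and Slc2a9.

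The mean signal of white adipocyte markers overlapped between the genotypes, which does not show an equal adipocyte content. The mean of 10 white adipocyte markers was 14.09 to 14.30 on Naa10-KO arrays and 14.08 to 14.43 on WT arrays. Fabp4, the adipocyte fatty acid carrier, averaged 16.07 ± 0.19 in Naa10-KO fat and 15.87 ± 0.20 in WT fat (SD, n = 3 each). Adipoq, adiponectin, averaged 15.71 ± 0.13 in Naa10-KO fat and 15.61 ± 0.16 in WT fat. Lpl, lipoprotein lipase, averaged 15.26 ± 0.12 in Naa10-KO fat and 15.47 ± 0.16 in WT fat. Brown and beige markers were at 8.75 to 9.41 on Naa10-KO arrays and 7.39 to 7.90 on WT arrays. Of these 8 markers, 6 had a higher mean in Naa10-KO and 2 a lower one. Their differences ran from -0.97 to 6.17, with a median of 0.77. None of the 8 passed the test. In 4 the genotypes did not overlap, all 4 higher in Naa10-KO, beside 10% of all genes higher and 8.14% lower. The part of muscle RNA in the brown and beige values was not tested. The mean of 10 macrophage markers was 9.65 to 9.92 on Naa10-KO arrays and 9.96 to 10.14 on WT arrays, although 7 of the 10 had a higher mean in Naa10-KO and 3 a lower one, with differences of -2.80 to 0.43 and a median of 0.08. Progenitor markers were at 11.10 to 11.65 on Naa10-KO arrays and 11.54 to 11.65 on WT arrays, and lymphocyte markers at 6.62 to 8.46 on Naa10-KO arrays and 7.50 to 8.41 on WT arrays. The part of these cells in the values of the 10 genes was not tested.

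**Figure D5:**
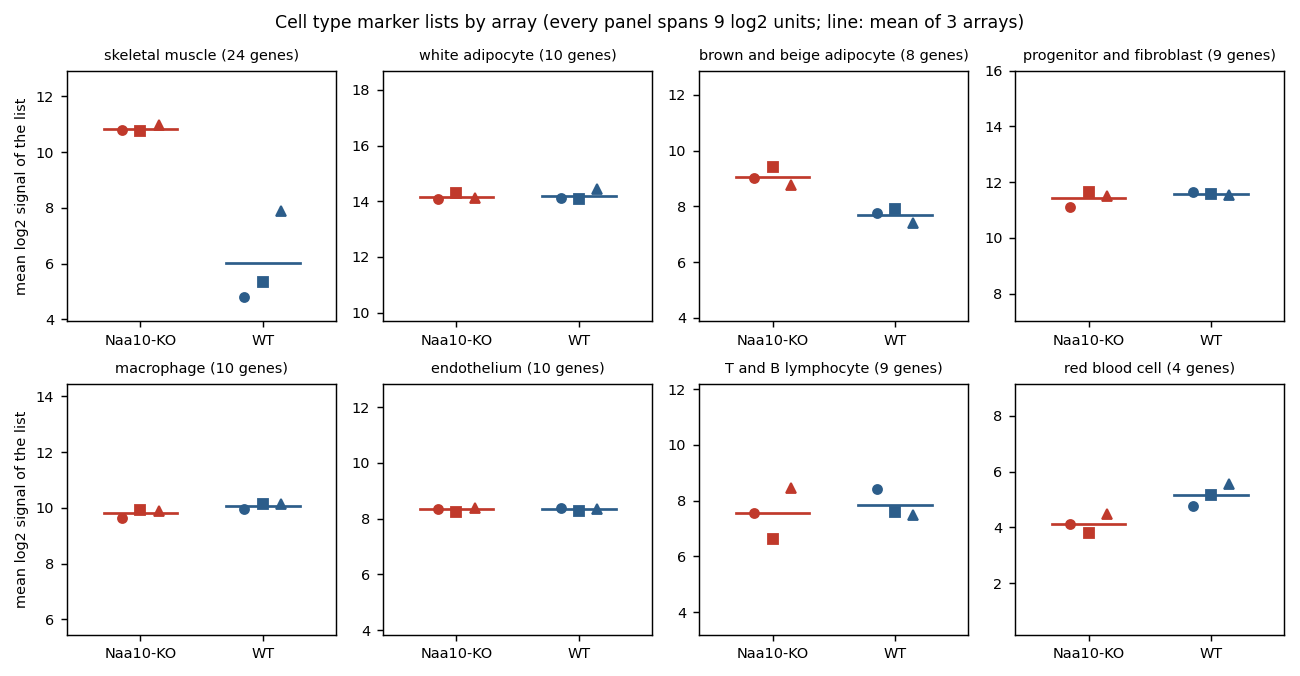
Mean log2 signal of each marker list on each array, Naa10-KO left and WT right; circles, squares and triangles are replicates 1, 2 and 3 and the line is the mean. Muscle markers lie at 10.75 to 10.96 on Naa10-KO arrays and 4.81 to 7.88 on WT arrays, while white adipocyte markers overlap.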

How the data were processed

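RNA of inguinal fat from 6 mice was hybridised by the authors to the Affymetrix mouse expression array, 3 µg of total RNA each, per the labels' protocols. Values deposited by the authors are log2 signals of 45101 probe sets; turned to linear signal, their mean was 500 on every array once the outer 2% on either side were dropped. The software behind them was not given in the labels, and no detection calls were used. Array medians were 5.78 to 5.96, and pairs of arrays correlated at 0.903 to 0.917. Values were used as deposited.

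Probe sets were named through a GEO annotation of 2016: 34945 had 1 gene, 932 several and 9160 none, beside 64 controls. Entrez identifiers of 34741 matched RefSeq (GRCm38.p6), changing 0 symbols. For 18193 genes, the probe set of highest mean was fitted with limma 3.58.1 in R 4.3.3 (lmFit, eBayes, genotype only, 1.39 prior degrees of freedom), Benjamini-Hochberg over all genes. Single probe sets were adjusted over all 34945. Code was tested on simulated data. Precision is limited by the number of arrays, and p-values measure the spread between single mice.

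The 10 genes and all lists were chosen with earlier results of these data known. Genes named were the 10 members with every probe set, up to 3 genes per pathway group by smallest p, and the 3 muscle and 3 white adipocyte markers of highest mean; Irs4 in a caption was named for its size with its values known. The motifs, and the alternatives for single Pik3r1 probe sets, were added later. The labels number arrays 1 to 3 per genotype, but deviations of same-numbered arrays from their group means correlated at -0.0306 to -0.0057, so they were not paired. Promoter sequences are RefSeq's.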

Additional observations from a re-analysis of the deposited data

How the results depend on the processing

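Called members numbered 0 in either direction in limma under all 17 alternatives, as did the other pathway genes. The median difference of the 10 genes was 0.17 to 0.22 under the alternatives with all arrays, and ran from -0.02 (without WT replicate 1) to 0.29 (without WT replicate 3) with 1 array left out. Adjusted p-values of single members ranged from 0.384 to 0.994. Signs turned for Tbc1d4 (-0.26) and Foxo1 (0.09) with the mean of all probe sets, for Foxo1 without x_at and s_at probe sets (0.12), and with array weights for Akt2, Pik3r1 and Slc2a4 (0.05 each) and Foxo1 (0.04). With 1 array left out, ranges that crossed 0 were -0.07 to 0.61 for Irs2, -0.08 to 0.22 for Akt1, -0.17 to 0.12 for Akt2, -0.14 to 0.09 for Pik3r1, -0.20 to 0.18 for Slc2a4 and -0.10 to 0.16 for Foxo1. Insr (0.20 to 0.49), Irs1 (0.20 to 0.48), Slc2a1 (0.14 to 0.40) and Tbc1d4 (0.21 to 0.55) stayed above 0 there. The cause was not tested, beyond the change of probe sets or arrays itself. Over all genes, calls were 16 higher and 5 lower, and 0 in each direction with the mean of all probe sets, with all probe sets tested one by one, with the replicate block, and with any 1 array left out other than WT replicate 3, whose removal gave 29 higher and 1 lower. Calls were 70 and 5 after dim genes were dropped, 104 and 13 with dim values raised to a floor, 102 and 35 with trend and robust options, 27 and 7 with array weights, 14 and 3 with quantile normalization, and 40 and 10 at an adjusted p of 0.10. With the replicate block, the median of the 10 genes was 0.18 and 0 members were called. Low signal limits the probe sets below the median of all values, 5 of the 27.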
